A study of Mus musculus with 2 samples.

Results

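The pre-B cell receptor components Vpreb1, Vpreb2, Igll1, Vpreb3, Cd79a and Cd79b were followed in 2 mouse B-cell lymphoma cultures, through every probe set whose platform gene symbols include one of them. These were 7 of the 45101 probe sets of the array and 6 of the 18194 genes it names. The study hybridised 1 array with RNA of a Cdk4+/+:Eµ-Myc lymphoma and 1 array with RNA of a Cdk4-/-:Eµ-Myc lymphoma, to ask what loss of the kinase CDK4 changes in lymphoma driven by Myc. Both groups carry the Eµ-Myc transgene, in which the immunoglobulin heavy chain enhancer drives Myc in B-lineage cells, and both lymphomas came from lymph nodes and were grown in culture. Each genotype is 1 array with no replicate, so no p-value or SE exists, and a difference between the arrays is a difference between these cultures.

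The pre-B cell receptor forms in the bone marrow when a precursor B cell has made a mu heavy chain but no light chain yet. The VpreB proteins, encoded by Vpreb1 and Vpreb2, and lambda 5, encoded by Igll1, together form the surrogate light chain that pairs with mu. CD79a and CD79b, also called Ig-alpha and Ig-beta, carry the signal into the cell for this receptor and later for the mature B cell receptor. Surrogate light chain genes are normally switched off after the pre-B stage, whereas Cd79a and Cd79b stay on until plasma cells form.

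In RefSeq's mouse assembly GRCm38.p6, Igll1 and Vpreb1 are next to each other on chromosome 16, and Vpreb2 lies further along the same chromosome. Sequences before the starts of Vpreb1 and Vpreb2 are printed to show how alike the 2 loci are. They are not the transcripts that the array's probes target. Promoter windows of 300 bases were at hand for 5 of the 6 members, all but Cd79b. The Vpreb2 window overlaps the Vpreb1 window in sequence over 156 bases, of which 153 are identical without gaps. The 106 of these bases that lie before the annotated Vpreb1 start are printed 5′ to 3′, and capitals mark the 2 positions that differ, G12T and C104T, counted from 1 at the first printed base with the Vpreb1 base first. They are chr16:16869256-16869361 on the minus strand for Vpreb1 and chr16:17980315-17980420 on the plus strand for Vpreb2.
Vpreb1: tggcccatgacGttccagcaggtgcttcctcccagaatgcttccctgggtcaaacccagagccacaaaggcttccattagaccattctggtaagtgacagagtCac
Vpreb2: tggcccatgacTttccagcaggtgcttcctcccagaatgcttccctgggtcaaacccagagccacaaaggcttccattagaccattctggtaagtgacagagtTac

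The 100 bases before the annotated start of Igll1, which was much brighter on 1 array, and of Vpreb3, which differed less, are shown for contrast, with motif matches in capitals. For Vpreb2 and Vpreb3 the window belongs to a start inside the gene's annotated span. The stretches are chr16:16863986-16864085 on the minus strand and chr10:75948200-75948299 on the plus strand.
Igll1: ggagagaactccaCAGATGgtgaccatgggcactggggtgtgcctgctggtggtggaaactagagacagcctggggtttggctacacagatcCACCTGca
Vpreb3: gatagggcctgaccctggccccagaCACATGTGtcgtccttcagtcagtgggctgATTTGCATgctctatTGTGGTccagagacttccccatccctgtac

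The motifs were searched on both strands of each 300-base window. The E-box CANNTG, the site of E2A-type factors, lay in all 5 member windows and in 72.3% of the 32851 windows of all genes. Its form CAGGTG lay in 4 of the 5, those of Vpreb1, Vpreb2, Igll1 and Cd79a, and in 20.2% of all windows, and each of its matches is also a CANNTG match. In the Vpreb pair it is the caggtg of the printed stretch. The core CCCNNGGG of EBF-type sites was found only in the Igll1 window, at base -231, against 13.7% of all windows. The RUNX site TGTGGT lay in the windows of Igll1 and Vpreb3, against 16.8%. The octamer ATGCAAAT, known from immunoglobulin promoters, lay only in that of Vpreb3, in the reverse direction at base -45, against 1.74%. These are matches of letters, and no binding was measured.

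Values are MAS5 signal intensities on a linear scale. Both arrays had the same trimmed mean of 500.003, and the array labelled wild type had a median signal of 62.8 and the array labelled null one of 62.0. Signals below a floor of 62.2, the median over all probe sets without controls, were raised to it before log2 was taken. A gene is called detected on an array where its signal exceeds the floor. Detection on both arrays gives a measured fold, and detection on a single array gives a bound. Paired probe sets of the same gene gave an SD of 0.31 for a log2 difference, over 3082 genes. This is the probe set error used below. It comes from probe sets on the same arrays, so it does not cover error between arrays, nor variation between cultures or tumours. Probe sets with suffix a, s, x or f, or with a signal below the floor, did not enter it. For these a multiple of the SD is a scale only.

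The targeted gene went against the labels. The 3 Cdk4 probe sets read 1.19, 1.18 and 3.71 where the label is wild type, and 4945, 4506 and 6958 where it is null. All directions therefore follow the labels as given, and would turn if the labels were exchanged. Of 10 B-lineage markers 9 were analysed here, and all 9 were detected on both arrays, so both cultures carried RNA of B-lineage cells. The largest differences among them were those of Bank1, a signalling adaptor, at 472 against 3367, and the tetraspanin gene Cd37 at 2263 against 6926 (wild type first), followed by Blnk and Ptprc with log2 differences of 0.50 and 0.41. Of 4 mature B markers, Ms4a1 and Cd74 were detected on both arrays, with differences of 0.01 and 0.05. In bulk RNA, fewer cells of a type and less RNA per cell cannot be told apart.

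The surrogate light chain genes were bright on the array labelled null and dim on the array labelled wild type, while the signalling chains were nearly equal. By 1 probe set per gene, 3 of the 6 members reached 2-fold with the array labelled null as the higher. These were 2 measured folds (Vpreb1 and Igll1) and 1 bound (Vpreb2). The Vpreb2 bound comes from a probe set that also names Vpreb1, so the count is not of independent measurements. No other gene in the shares that follow rests on a probe set naming several genes. Over all genes, 4.26% of the 9418 detected on both arrays were higher by 2-fold, and 5.85% of the 10721 detected on at least 1 array when bounds are included. No member was lower by 2-fold by its brightest probe set, against 3.27% of measured genes and 4.06% with bounds included. With only 6 members, such an absence is near those shares. Of the 6 members, 5 were detected on both arrays, and Vpreb2 only on the array labelled null.

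**Figure D1:**
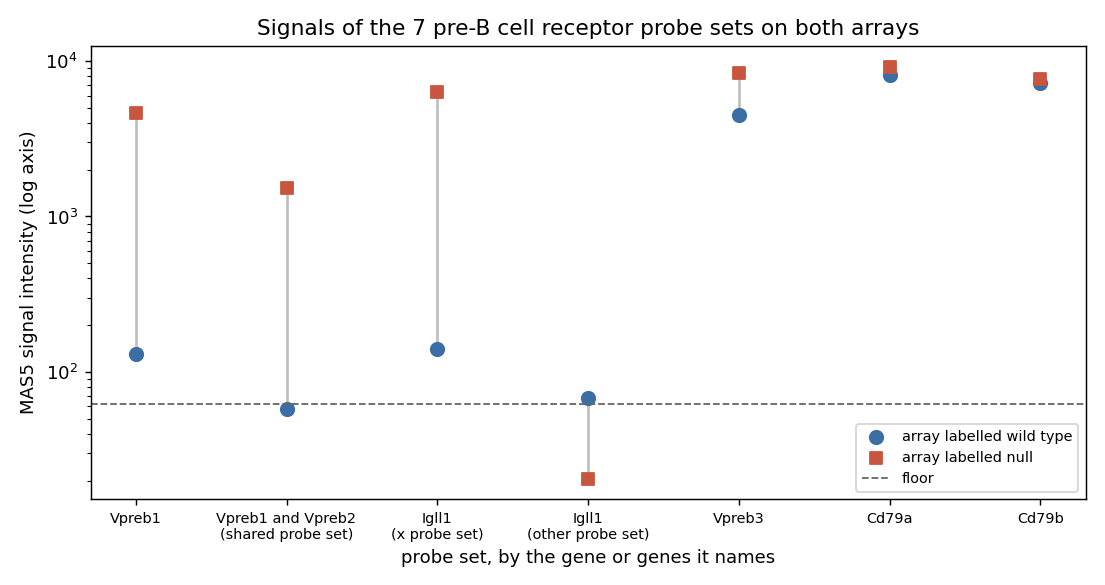
MAS5 signal on a log axis for each of the 7 probe sets of the members, with circles for the array labelled wild type, squares for the array labelled null and a dashed line at the floor of 62.2. The Vpreb1 probe set, the probe set shared by Vpreb1 and Vpreb2 and the x probe set of Igll1 are far apart between arrays, the other Igll1 probe set is turned and near or below the floor, and the Cd79a and Cd79b points nearly coincide.

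Vpreb1, which encodes the variable-like part of the surrogate light chain, read 129 for the label wild type and 4616 for the label null by the probe set 1449869_at. Values are given in this order from here on. The difference was 5.16 on the log2 scale, or 35.7-fold, and only 4 of the 9418 measured genes were higher by more. A second probe set, 1422416_s_at, names both Vpreb2 and Vpreb1 and read 58.1 against 1533. The lower value is under the floor, so it gives at least 24.7-fold, or a log2 bound of 4.62. Both probe sets thus separated the arrays in the same direction, the first by 16.9 times the probe set SD of 0.31 and the second, as a bound, by 15.1 times.

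Vpreb2 encodes a second VpreB protein that is nearly the same as the first. It has no probe set of its own in the platform annotation and is measured only by the shared one. Its signal can come from either gene or both, so the bound of 24.7-fold is not a value for Vpreb2 alone. The annotation names only Vpreb1 for 1449869_at. Whether its probes also match Vpreb2, whose sequence is close, was not tested, so Vpreb1 itself is uncertain in the same sense.

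Igll1, which encodes the constant-like part, lambda 5, was measured by 2 probe sets that disagree. The probe set 1420176_x_at read 140 against 6291, a log2 difference of 5.49 or 44.9-fold, and only 2 measured genes were higher by more. The probe set 1420177_at read 67.6 against 20.5, the first just above the floor and the second well below it. It has a log2 bound of -0.12, which is 0.394 of the probe set SD. The x in the name of the first marks probes that closely resemble other sequences. The high value of Igll1 on the array labelled null therefore rests on 1 probe set that may not be specific, and the other probe set is dim on both arrays.

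Lambda 5 is related in sequence to the constant regions of lambda light chains, so the lambda probe sets were set beside it, chosen after their values were seen. All 4 lambda probe sets above the floor on an array went the other way. The probe set that names Iglc1 and Iglv1 read 14840 against 35.5, and those of Iglv1 alone read 6210 against 19.1, 14489 against 111 and 212 against 3.25. The x probe set of Igll1 was low where lambda light chain signal was high, and which transcripts it matches was not tested. The 3 probe sets that include the kappa constant gene Igkc, each of which names 5 genes, read 21231 against 10308, 14181 against 9280 and 9803 against 6847. Conventional light chain signal was thus lower on the array where the surrogate light chain was bright, and kappa signal was still high there.

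Vpreb3 encodes a VpreB-related protein that binds newly made mu heavy chain inside the cell and is not part of the surrogate light chain. It read 4466 against 8370, a log2 difference of 0.91 or 1.87-fold. This is under 2-fold, though it is 2.97 times the probe set SD, and 9.57% of measured genes lay as far from 0 in either direction. Unlike Vpreb1 and Igll1, Vpreb3 was bright on both arrays.

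Cd79a read 8121 against 9216, a log2 difference of 0.18 or 1.13-fold, and Cd79b read 7191 against 7634, a log2 difference of 0.09 or 1.06-fold. These are 0.598 and 0.282 of the probe set SD, so neither is separable from probe set error, and 64.0% and 82.3% of measured genes lay at least as far from 0. Each has 1 probe set, which names it alone. The chains that both the pre-B and the mature receptor use were therefore bright in both cultures.

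**Figure D2:**
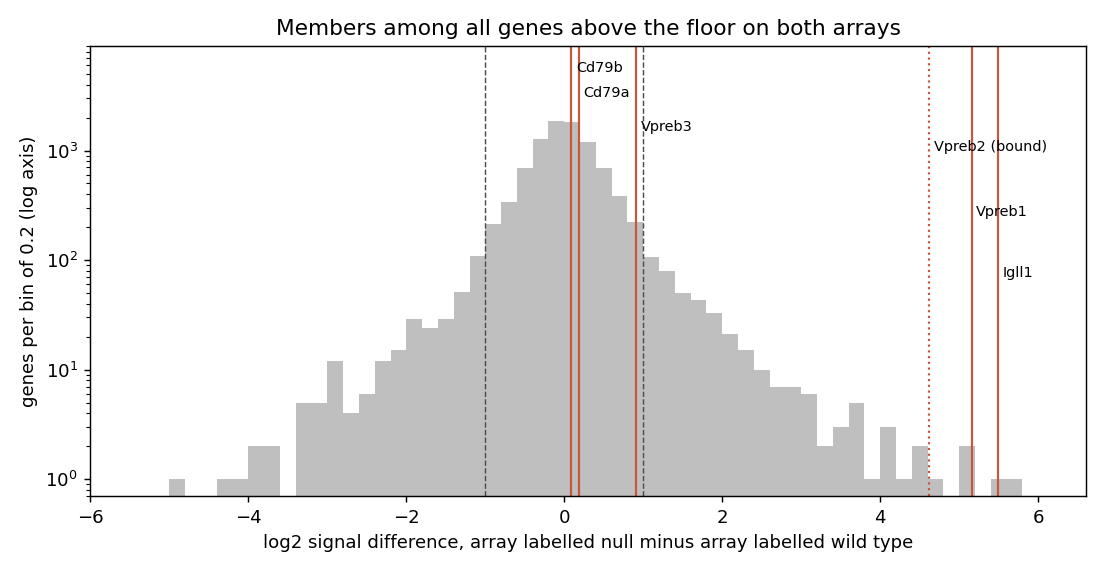
Histogram of the log2 signal difference, array labelled null minus array labelled wild type, for the 9418 genes detected on both arrays, with gene counts per bin on a log axis and dashed lines at 2-fold. Solid lines mark the 5 measured members and the dotted line the bound of Vpreb2; Cd79a, Cd79b and Vpreb3 lie inside the dashed lines, and Vpreb1 and Igll1 lie at the far right end.

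The nearest detected genes on either side of the members did not share the large differences. Some lie directly next to a member and others up to 22 genes away in the RefSeq order. Of these 30 genes, 28 were detected on both arrays, with a median log2 difference of -0.03. By 2-fold, 1 was higher and 2 were lower, beside 4.26% and 3.27% of all measured genes. The 1 higher was Top3b, a DNA topoisomerase gene directly after Vpreb1, at 505 against 1294 or 2.56-fold. The Top3b probe set has the suffix x, so it may not be specific. On the other side of Igll1, Dnm1l, a gene of mitochondrial division 12 genes away, read 2875 against 2702 and Yars2, a mitochondrial tRNA synthetase gene 13 genes away, read 1280 against 1166. The 2 lower were neighbours of Vpreb2, the proline dehydrogenase gene Prodh at 746 against 194 and the Nogo receptor gene Rtn4r at 313 against 140. Around Vpreb3, Cd79a and Cd79b no neighbour reached 2-fold.

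**Figure D3:**
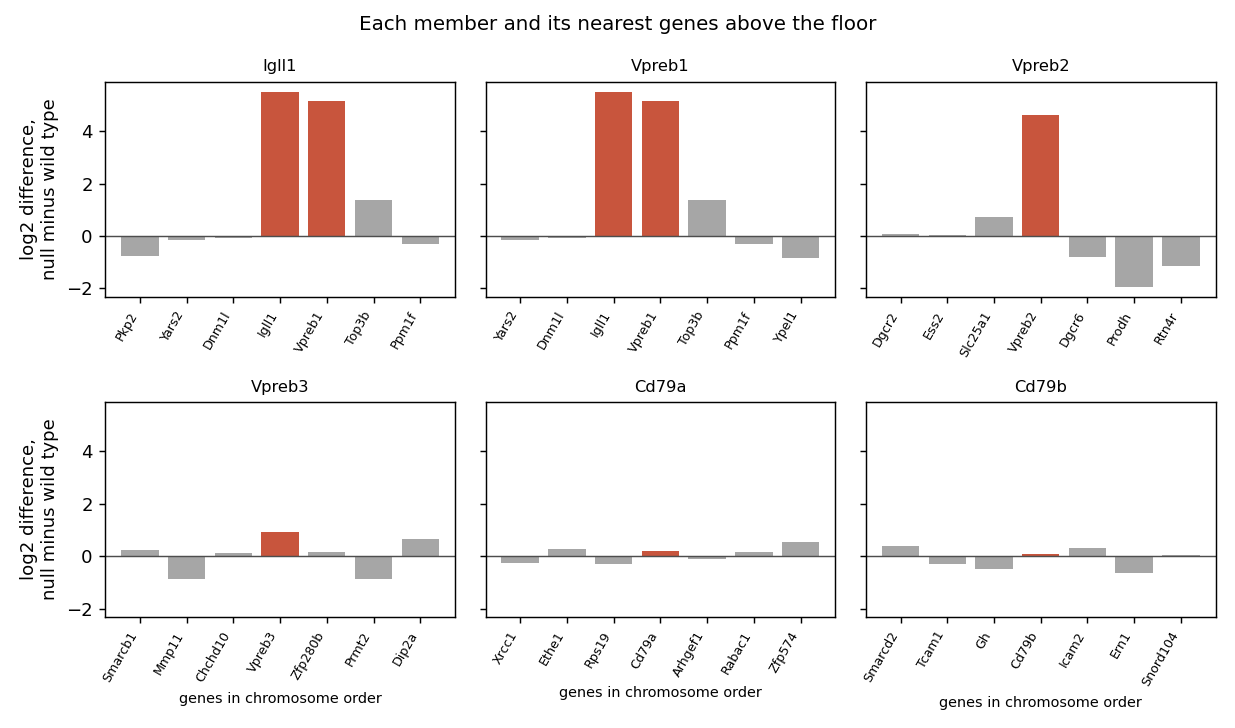
Log2 signal difference, array labelled null minus array labelled wild type, of each member (red) and the 3 nearest genes above the floor on at least 1 array on each side (grey, red where the neighbour is itself a member), in chromosome order. The bars of Igll1, Vpreb1 and Vpreb2 stand above 4, and no grey bar reaches 2 in either direction.

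Most genes of the receptor's pathway were detected on both arrays and differed by under 2-fold, while the signal target Ccnd2 was detected only where the label is null. Of 28 listed genes, 26 were analysed here. Of the 25 detected on both arrays, 4 were higher and 1 lower by 2-fold, and Ccnd2 was a further 1 higher as a bound, beside 4.26% and 3.27% of all measured genes. The median over the 26 was 0.53, against 0.0012 over all genes detected on at least 1 array. The genes were listed with earlier results of these data known, so the counts describe the list.

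The mu heavy chain gene Ighm, whose product pairs with the surrogate light chain, read 21937 against 20103 by its brightest probe set. The 5 proximal kinase genes measured, among them Syk, which binds the phosphorylated CD79 tails, at 5158 against 4372, and Btk at 2616 against 3164, had 0 members at 2-fold. Among 8 adaptors and enzymes, 1 differed by 2-fold, Pik3ap1, the adaptor BCAP that links the receptor to PI3 kinase, which was 4.28-fold lower at 2761 against 645. A second Pik3ap1 probe set read 290 against 358, in the other direction. The adaptor Blnk, which joins Syk to Plcg2, read 5646 against 7959.

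Genes that restrain the receptor's signal held 3 of the 4 measured pathway genes that were 2-fold higher. Inpp5d, which encodes the lipid phosphatase SHIP1, read 1330 against 3673, or 2.76-fold, and Ptpn6, which encodes the tyrosine phosphatase SHP-1, read 2153 against 5125, or 2.38-fold. Sh2b3, an adaptor named after its values were seen, was just past 2-fold at 635 against 1299. The other 2 brakes, Cd22 and Cd72, had log2 differences of 0.08 and -0.16. Among targets of the signal, Bcl6, a repressor induced by the pre-B cell receptor, read 124 against 284, and its other probe set, partly under the floor, read 57.1 against 87.4. Ccnd2, which encodes cyclin D2, read 28.1 against 3645, at least 58.6-fold higher.

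The listed transcription factors, known to act on these genes or in early B cells, did not differ by 2-fold where detected on both arrays. Of 18 listed factors, 16 were detected on both arrays, with 8 above 0, 8 below 0 and 0 at 2-fold. Over all measured genes, 4.26% were higher and 3.27% lower by 2-fold, so 0 of 16 is near those shares. Id2 was detected only where the label is null, and Erg on neither array. The median over the 17 detected on at least 1 array was 0.11. Ebf1, an activator of the surrogate light chain and Cd79a genes, read 1779 against 2491, its partner Tcf3, which encodes E2A, 8786 against 7598, and Pax5 658 against 712. The largest differences were those of Ikzf3, which encodes Aiolos, at 1647 against 3046, Spi1, which encodes PU.1, at 982 against 1471, Ikzf1, which encodes Ikaros, at 6987 against 10291, and Ets1 at 7376 against 5004. Ikaros and Aiolos are known as repressors of the surrogate light chain genes. Their other probe sets did not all share the direction of the brightest, with the second Ikzf1 probe set at 2368 against 2337 and those of Ikzf3 at 323 against 450 and 164 against 143.

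Several other genes of the pro-B and pre-B stage were brighter where the label is null. The other listed genes detected on both arrays differed by under 2-fold. Of 15 listed, 12 were detected on both arrays. At 2-fold 6 were higher and 0 lower, beside 4.26% and 3.27% of all measured genes, and the median was 0.48 over the 13 detected on at least 1 array. Bst1, a surface enzyme, read 63.7 against 399, Cd93, the early B antigen AA4, 1005 against 3929, Enpep, which encodes the pre-B antigen BP-1, 981 against 3352, and the recombinase gene Rag2 118 against 373. The remaining 2 at 2-fold, Rag1 and the receptor gene Crlf2, had log2 differences of 1.62 and 1.36. Lower were Cplx2 at 1717 against 1142 and Cd24a, a surface antigen of early B cells, at 21831 against 15586. Il2ra, the alpha chain of the IL-2 receptor, was detected only where the label is wild type. It read 123 against 51.0, a bound of at least 1.97-fold lower. Il7r, the receptor of pre-B growth factor IL-7, differed little at 3958 against 4828, and Dntt and Kit were detected on neither array.

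**Figure D4:**
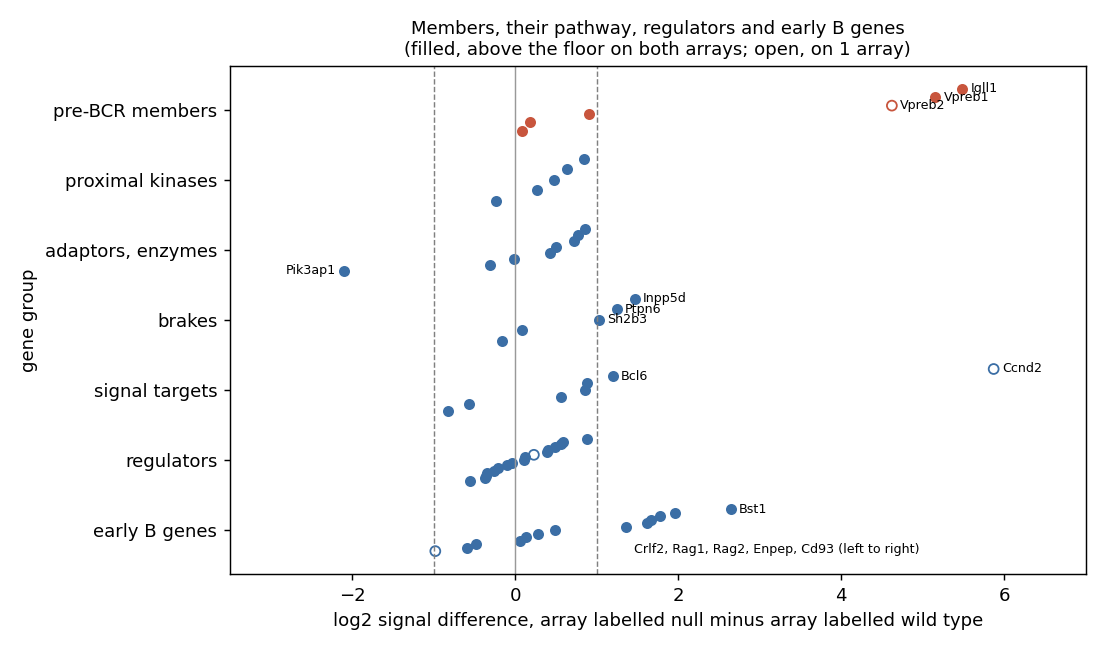
Log2 signal difference, array labelled null minus array labelled wild type, for the members (red) and for genes of the receptor's pathway other than Ighm, its regulators and the early B list (blue), 1 point per gene, filled where the gene is detected on both arrays and open where it is a bound. Dashed lines mark 2-fold. Vpreb1, Vpreb2, Igll1 and Ccnd2 lie beyond 4, and all listed regulators plotted lie inside the dashed lines.

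Genes listed as markers of other cells also differed between the arrays. Of 10 macrophage and granulocyte markers, 3 were detected on both arrays, 5 where the label is null alone and 2 nowhere, with a summed signal of 351 against 4068. Over all 18194 genes, 667 were detected where the label is null alone and 636 where it is wild type alone. The lysozyme genes Lyz2, at 70.1 against 1368 or 19.5-fold, and Lyz1, at 5.74 against 1890 or at least 30.4-fold, made up most of the sum. The Lyz1 probe set has the suffix x, and whether it also matches Lyz2 was not tested. The macrophage genes Csf1r and Adgre1 read 85.5 against 221 and 67.4 against 97.8. The 2 detected nowhere were the granulocyte genes Mpo and Elane. Of 7 stromal and endothelial markers, 2 were detected on both arrays, 2 where the label is null alone, 1 where it is wild type alone and 2 nowhere, with a summed signal of 923 against 1834, and the fibroblast and pericyte genes Dcn and Pdgfrb were the ones detected nowhere. The collagen gene Col1a2 read 85.5 against 591 or 6.91-fold, Col3a1 33.6 against 286 or at least 4.60-fold, and the endothelial gene Pecam1 695 against 777. Pecam1 made up most of the sum where the label is wild type. The gene detected only there, Cdh5, read 68.2 against 20.2. Of the 7 T and NK cell markers measured, 5 were detected on neither array, among them Cd3e, Cd3d and Cd3g, with a summed signal of 497 against 1043. The 2 detected went in opposite directions, with Cd2 at 346 against 931 and Cd8a at 81.6 against 63.7. The higher sum is therefore that of Cd2 alone, and which cells its signal came from was not tested. The 2 erythroid markers measured were detected on neither. Their part in the surrogate light chain difference was not tested.

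The genes whose signals on the 2 arrays were most like each bright member were found by Euclidean distance of log2 signals over those 2 arrays, with shared probe sets and the members themselves left out. For Vpreb1 they were the kinase gene Stk26 at 164 against 3859 (distance 0.43), an Ighm probe set, 1452535_at, at 128 against 3234 (distance 0.51), and Cdk4 (distance 1.06). For Igll1 they were Stk26 (distance 0.74), the same Ighm probe set (distance 0.97) and Rpl39l at 2.84 against 8180 (distance 1.23). For the probe set of Vpreb2 they were Hsd17b11 at 63.4 against 1583, Phlda1 at 50.0 against 1417 and Etv5 at 71.1 against 1629. With 2 arrays such likeness says only that the genes share a dim and a bright array.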

How the data were processed

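Total RNA was extracted with Trizol and labelled as biotinylated cRNA, per the labels' protocols. The deposited table holds 1 MAS5 signal intensity per probe set on a linear scale, per the submitters' processing notes; the MAS5 version and detection calls are not given in the sources used here. Gene names of probe sets came from GEO's annotation of the platform, with 34945 naming 1 gene, 932 several and 9160 none, and symbols were updated through a RefSeq table of GRCm38.p6. The 64 control probe sets were left out. Signals were scaled to 1 trimmed mean (2% from each end), floored at the median, 62.2, and taken to log2. The probe set with the highest mean stood for a gene. A probe set that names several genes was used only for Vpreb2, which has no other.

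Genes named are the members, the 4 largest measured differences of each list, bounds of at least 4-fold, Cdk4 and the 3 most similar genes; others given as illustration of a list or a locus, such as Syk, Btk, Ebf1, Tcf3, Pax5, Il7r and Cplx2, were chosen after their values were seen. The members and lists were chosen with earlier results of these data known, and motifs with the windows in view. Alternatives changed the floor, the normalization, the pseudocount and the treatment of probe sets. The 2-fold count was tested on simulated data. Python 3.11.15, numpy 2.4.6 and pandas 2.3.3 were used.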

Additional observations from a re-analysis of the deposited data

How the results depend on the processing

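Of 76 values recomputed under 7 alternatives, 66 stayed within the probe set SD, or for counts within 1.5 times, of the value reported. Many of these could not move by construction. Median-centring subtracts only 3.12e-05, and averaging over probe sets cannot change a member represented by a single probe set. Changing the floor cannot change a gene that stays above it on both arrays. The count is therefore not a measure of stability. Without shared probe sets (suffix a, s, x or f), Igll1 turned to a bound of -0.12, since only its dim probe set remains, and Vpreb2 had no value. With the mean over probe sets Igll1 was 2.68. With the higher floor, at signal percentile 75, Vpreb1, Vpreb2 and Igll1 became bounds of 3.33, 1.74 and 3.78, which a higher floor produces by construction, the early B list median was 0.82, and 118 genes were higher and 83 lower at 2-fold. A lower floor at percentile 25 gave 834 higher and 779 lower. Vpreb3 stayed between 0.90 and 0.98, Cd79a between 0.18 and 0.32 and Cd79b between 0.09 and 0.18 under all 7 alternatives. The regulator list median was -0.04 with the higher floor. No paired analysis was possible because each group is 1 array. The number of arrays limits the precision, and signals near the floor give little order.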

Other observations

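The Ighm probe sets disagreed with each other. Of 11 that name Ighm alone, 4 were above the floor on an array. The probe sets 1427329_a_at and 1427351_s_at were bright on both arrays, at 21937 against 20103 and 18345 against 15648. The probe set 1427870_x_at read 211 against 133, and 1452535_at read 128 against 3234, a 25.2-fold difference close to that of Vpreb1. Which part of the heavy chain locus the last one covers is not given by the platform annotation used here. The brighter 1427329_a_at stood for the gene. Where shared probe sets were left out, as for the most similar genes, 1452535_at stood for Ighm instead.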
